A study of Mus musculus with 16 samples.

Results

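The core pluripotency genes described here are Nanog, Pou5f1, Utf1, Tdh, L1td1, Klf2, Dppa5a, Fgf4, Zfp42 and Esrrb, 10 of the 35976 genes in the count table. They were taken by symbol and were chosen with earlier results of these data known. RNA was measured with BRB-seq, a bulk 3′ RNA-seq method that barcodes samples and pools them early, in 16 libraries from mouse neural tube organoids on day 4. Each library came from R1, a mouse embryonic stem cell line, with a FOXA2-Venus reporter, and each had retinoic acid (RA) for 18 hours, so neither an organoid without the acid nor undifferentiated stem cells were compared. FOXA2 is the transcription factor of the floor plate, the cells at the neural tube's ventral midline, and the labels divide the libraries by its level into a negative, a low, a medium and a high gate with 4 libraries each. The labels do not say whether the numbered libraries of a gate are separate cultures, nor whether the reporter line is a single clone, so p-values reflect only how far these libraries spread, part of which may be technical.

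Pluripotent cells can form every tissue of the embryo, and they hold that state with a small set of mutually activating transcription factors, among them OCT4 (the product of Pou5f1), NANOG, KLF2 and ESRRB. Naive cells, which resemble the epiblast before implantation, use all of these, while Klf2, Esrrb and Zfp42 are shut down as cells move through the formative to the primed state of the implanted epiblast. In neural differentiation the whole network is silenced, and RA speeds its loss, in part through nuclear receptors that bind control regions of Pou5f1.

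The negative gate held the most of all 10 transcripts. In the low gate, 8 of the 8 genes that could be tested had fallen (2.29% of all tested genes had), Tdh by 3.41 on the log2 scale, Utf1 by 2.87, Nanog by 2.34 and Esrrb by 1.70. In the main fit, which ignores the library numbers, the fall went further with more FOXA2 for Nanog and Utf1. For the others no further step passed the test there. With the library number as a block, 6 core genes were called lower between high and low, against 477 of all genes in that fit. In the high gate, Nanog was left at 3.15% of its negative-gate mean, Utf1 at 4.60% and Esrrb at 18.1%, and Pou5f1 and Fgf4 had no count in any library.

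RefSeq promoter windows of the build GRCm38.p6, from 250 bases before to 50 bases after a transcript start, were found for 8 of the 10 genes, in 11 windows. They were searched on both strands for letters that pluripotency factors are known to bind. The octamer ATGCAAAT, read by OCT4, stood in 1 of the 11 windows, that of Zfp42, and in 1.74% of all 32851 windows. Its shorter form ATGCAAA, which lies within it, stood in 3 of the 11, both Nanog windows and that of Zfp42, and in 4.63% of all. The Nanog windows overlap, and the match is the same stretch of genome in both. The Sox core CATTGT stood in 4 of the 11, for Nanog (again 1 site in both windows), Pou5f1 and Esrrb, and in 12.6% of all. AGGTCA, the core letters of many nuclear receptor sites, stood in 2 of the 11, for Nanog and Pou5f1, and in 16.3% of all. The Esrrb site TCAAGGTCA was in none of the 11 and in 0.423% of all, the Klf letters GGGTGTG were in 2 and in 7.95%, and the GC box GGGCGG was in 5 and in 35.7%. These matches describe letters and not bound sites.
The windows of Nanog (chr6:122707239-122707538, plus strand), Zfp42 (chr8:43306960-43307259, minus strand) and Pou5f1 (chr17:35505782-35506081, plus strand) are shown 5′ to 3′ along the gene because they hold the OCT4-type letters and the nuclear receptor letters. Capitals mark a match to any searched motif on either strand, with overlapping matches run together.
Nanog: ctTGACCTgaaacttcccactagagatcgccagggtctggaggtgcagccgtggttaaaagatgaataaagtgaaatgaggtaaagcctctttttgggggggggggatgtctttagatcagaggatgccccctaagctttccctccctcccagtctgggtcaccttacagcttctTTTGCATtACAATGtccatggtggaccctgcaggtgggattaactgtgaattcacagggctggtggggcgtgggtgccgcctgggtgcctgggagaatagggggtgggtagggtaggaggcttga
Zfp42: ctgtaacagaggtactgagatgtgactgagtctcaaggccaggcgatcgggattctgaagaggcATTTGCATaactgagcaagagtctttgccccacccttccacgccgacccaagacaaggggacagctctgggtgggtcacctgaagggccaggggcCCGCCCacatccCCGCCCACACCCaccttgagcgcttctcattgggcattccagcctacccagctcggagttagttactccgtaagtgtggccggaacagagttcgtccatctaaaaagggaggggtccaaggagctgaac
Pou5f1: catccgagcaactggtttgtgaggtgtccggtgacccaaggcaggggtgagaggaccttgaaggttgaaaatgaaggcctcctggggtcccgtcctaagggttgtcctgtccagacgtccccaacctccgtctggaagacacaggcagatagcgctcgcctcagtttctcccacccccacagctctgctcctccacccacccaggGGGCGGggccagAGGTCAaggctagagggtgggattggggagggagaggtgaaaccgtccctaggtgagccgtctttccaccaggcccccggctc
In the Nanog window the OCT4-type letters start at -75 from the transcript start and the Sox core at -67, with 1 base between them. In Zfp42 the full octamer starts at -186, and in Pou5f1 the AGGTCA starts at -33.

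Library totals ran from 3268948 to 9961032 counts, so precision differed by library and genes with few counts were measured least well. Foxa2 checked the labels: its levels in CPM (counts scaled to library size by the TMM method) along the negative, low, medium and high gates were 2.91 ± 1.68, 11.9 ± 3.02, 52.0 ± 9.36 and 113 ± 18.2 (SD, n = 4 for every mean here), and it defined the gates. Genes were tested with edgeR's quasi-likelihood test with Benjamini-Hochberg adjustment over 13891 genes at a threshold of 0.05. A gene can pass the filter on low counts through the 4 negative libraries alone, so the number of core genes tested is no evidence of a fall. In bulk RNA, fewer cells holding a transcript and less of it in each cell cannot be told apart.

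**Figure D1:**
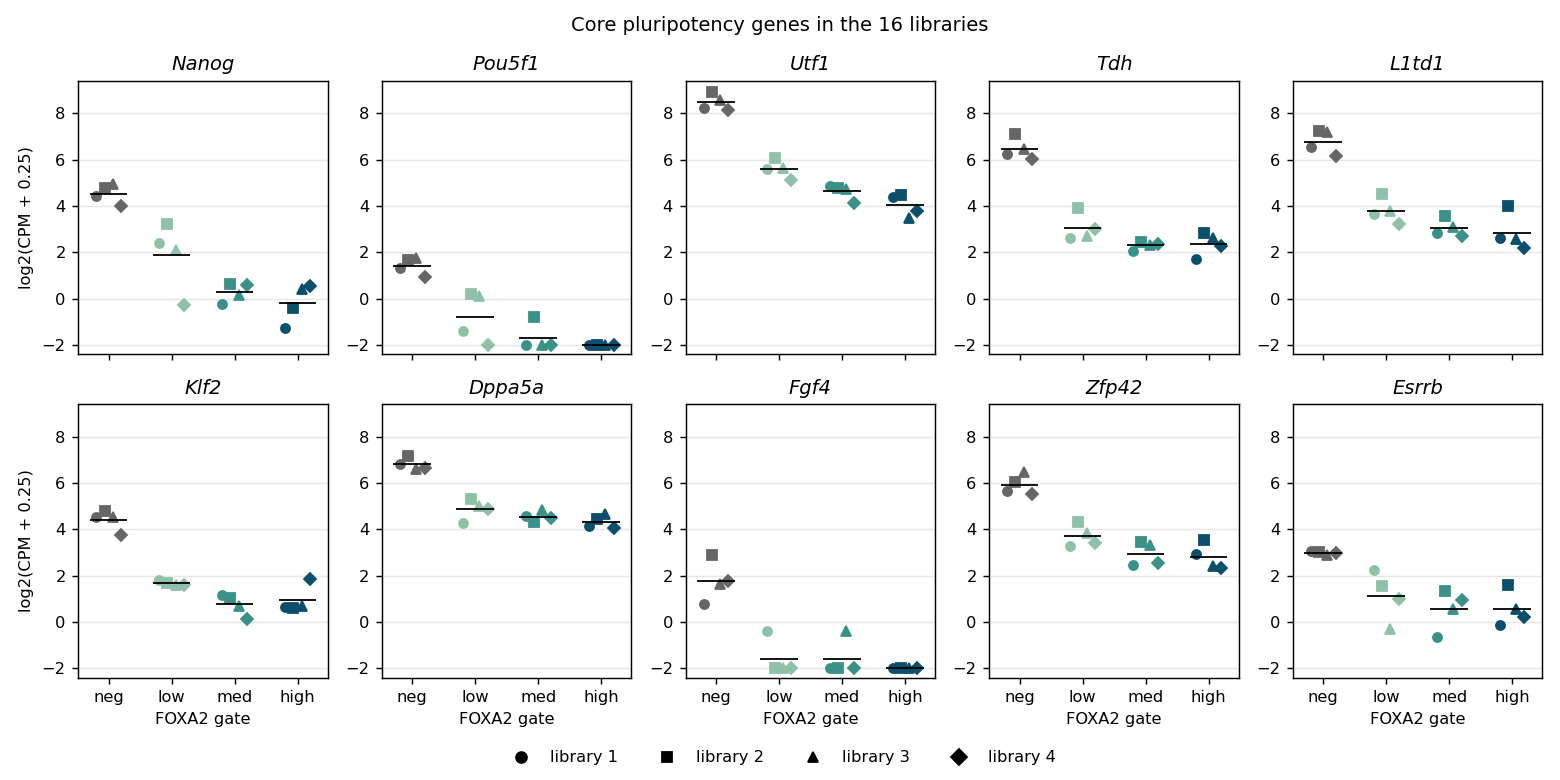
Level of each core pluripotency gene in each library, as log2(CPM + 0.25), by FOXA2 gate (neg, negative; med, medium); marker shapes are library numbers and bars are gate means on this scale. For each of the 10 genes the 4 negative libraries lie above all other libraries.

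Nanog, a homeodomain factor of the naive and primed network (chr6:122707489-122714633, plus strand), held 21.4, 26.9, 30.4 and 15.7 CPM in negative libraries 1 to 4 and 5.07, 9.01, 4.09 and 0.58 CPM in low libraries 1 to 4. The medium libraries held 0.59, 1.32, 0.864 and 1.27 CPM, and the high libraries 0.166, 0.506, 1.08 and 1.22. The negative libraries were all above the low ones, and low library 4 stood far below the others of its gate, among the medium and high libraries. Nanog fell by 2.34 on the log2 scale from negative to low (SE 0.43, adjusted p = 0.00221) and by 5.00 from negative to high (SE 0.58, adjusted p = 3.46e-06), a 32.1-fold difference. A fit of the negative and low gates alone put the first of these at an adjusted p of 0.0562. From low to high it fell by a further 2.66 (SE 0.64, adjusted p = 0.0137), which became 2.26 (adjusted p = 0.0601) without high library 1 and 2.55 (adjusted p = 0.0531) without high library 2. It was 2.61 (adjusted p = 0.0513) without low library 1 and medium library 2, 2 libraries that stand apart from their gates over all genes.

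Pou5f1 encodes OCT4, the POU-domain factor without which pluripotency is lost (chr17:35506018-35510772, plus strand). Its counts were few, summing to 64, 12, 2 and 0 along the negative, low, medium and high gates, and it did not pass the filter on low counts. The negative libraries held 2.27, 2.95, 3.09 and 1.64 CPM, the low libraries 0.127, 0.883, 0.847 and 0, and medium library 2 held 0.33 CPM while the other medium and all high libraries were at 0. No library outside the negative gate reached the negative ones. From pooled counts it was 5.40-fold lower at low FOXA2 (95% interval 2.89 to 11.0), 28.2-fold lower at medium FOXA2 (7.50 to 238), and at least 15.5-fold lower at high FOXA2 when that gate is set at the 3 counts that a count of 0 allows. These intervals cover counting error only. Over libraries, an exact two-sided permutation test gave p = 0.0286 for each of these 3 comparisons, the smallest that 4 against 4 can give. With no filter, edgeR gave an adjusted p of 0.0773 for low, 0.000246 for medium and 9.27e-06 for high against negative, and DESeq2 gave 0.112, 0.00341 and 9.07e-05. Of the 451 windows of 50 bases in the last 500 bases of its transcript, 29.7% also occur in other genes, and the exons of the antisense gene Gm19553 cover 170 of those bases, so its few reads could be shared.

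Klf2, a Krüppel-like factor of the naive network (chr8:72319033-72321656, plus strand), held 22.7, 27.4, 23.1 and 13.4 CPM in the negative libraries and 3.29, 3.00, 2.82 and 2.76 in the low libraries. The medium libraries held 1.97, 1.81, 1.38 and 0.85 CPM, and the high libraries 1.33, 1.26, 1.39 and 3.35. The 4 low libraries lay close together, below every negative and above every medium library, and high library 4 lay above the low libraries. Klf2 fell by 2.85 on the log2 scale from negative to low (SE 0.28, adjusted p = 8.72e-08) and by 3.63 from negative to high (SE 0.32, adjusted p = 7.2e-10).

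Esrrb, an orphan nuclear receptor that activates naive genes (chr12:86361117-86521628, plus strand), held 8.10, 7.81, 7.28 and 7.68 CPM in the negative libraries and 4.43, 2.65, 0.565 and 1.74 in the low libraries. In the medium libraries it was at 0.394, 2.31, 1.21 and 1.70 CPM, and in the high libraries at 0.665, 2.78, 1.23 and 0.913. The negative libraries were almost level with each other and above all the rest, while the low, medium and high libraries overlapped. It fell by 1.70 on the log2 scale from negative to low (SE 0.44, adjusted p = 0.0203) and by 2.50 from negative to high (SE 0.49, adjusted p = 0.000429). The first of these passed the threshold narrowly: the adjusted p was 0.0529 without negative library 1, 0.0505 without negative library 2, 0.0769 without low library 3, 0.0763 without low library 4, and 0.126 when all libraries were thinned to the smallest total.

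Zfp42 encodes REX1, a zinc finger protein widely used as a reporter of the naive state (chr8:43295063-43306980, minus strand). The negative libraries held 50.9, 66.3, 88.1 and 46.2 CPM, the low libraries 9.62, 19.6, 14.1 and 10.4, the medium libraries 5.31, 10.7, 9.68 and 5.52, and the high libraries 7.32, 11.4, 5.09 and 4.87. Negative libraries again stood clear of the rest, and the low gate overlapped with the medium and the high. The fall was 2.23 on the log2 scale to the low gate (SE 0.28, adjusted p = 3.92e-05) and 3.14 to the high gate (SE 0.31, adjusted p = 3.33e-07).

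Utf1 encodes a chromatin-associated protein of stem cells that limits the expression of poised genes (chr7:139943789-139945112, plus strand). Negative libraries 1 to 4 held 303, 486, 383 and 284 CPM, and the low libraries 48.3, 67.3, 49.4 and 35.1. The medium libraries held 28.7, 27.4, 26.4 and 17.4 CPM, and the high libraries 20.6, 21.8, 10.9 and 13.7. Negative, low and medium libraries formed separate ranges without overlap, and the high range overlapped with the medium alone. Utf1 fell by 2.87 on the log2 scale from negative to low (SE 0.24, adjusted p = 1.54e-06), by 1.58 from low to high (SE 0.26, adjusted p = 0.000961) and by 4.44 from negative to high (SE 0.27, adjusted p = 5.38e-09), the last a 21.8-fold difference.

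Dppa5a, a KH-domain RNA-binding protein named for its expression in pluripotent cells (chr9:78367052-78368177, minus strand), was measured at 113, 143, 98.6 and 99.9 CPM in the negative libraries and 19.1, 39.2, 32.5 and 29.6 in the low libraries. Its levels were 23.4, 19.6, 28.3 and 22.5 CPM in the medium libraries and 17.5, 21.5, 25.3 and 16.4 in the high libraries. Apart from the negative gate, the ranges overlapped, and low library 1 lay at the level of the high gate. It fell by 1.92 on the log2 scale to the low gate (SE 0.18, adjusted p = 6.52e-08) and by 2.48 to the high gate (SE 0.19, adjusted p = 1.05e-10). Of the 50-base windows at the end of its transcript, 46.3% also occur in 9 other genes, 2 of which are in the count table. For Tdh the share was 12.9% and for L1td1 4.88%, each with 1 other gene. Whether reads were shared or lost through this was not tested.

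L1td1, an RNA-binding protein derived from a LINE element that stem cells express strongly (chr4:98726734-98738480, plus strand), was at 93.8, 151, 146 and 70.7 CPM in the negative libraries and at 12.4, 22.4, 13.4 and 9.14 in the low libraries. The medium libraries held 6.89, 11.7, 8.30 and 6.23 CPM, and the high libraries 5.82, 15.9, 5.70 and 4.26. High library 2 stood well above the other high libraries, within the low range. L1td1 fell by 3.01 on the log2 scale to the low gate (SE 0.37, adjusted p = 0.000253) and by 3.89 to the high gate (SE 0.41, adjusted p = 1.17e-05).

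Tdh encodes threonine dehydrogenase, the mitochondrial enzyme on which mouse stem cells depend to break threonine down for glycine and acetyl-CoA (chr14:63492347-63509092, minus strand). The negative libraries held 76.3, 137, 88.1 and 64.5 CPM, the low libraries 5.95, 14.8, 6.35 and 7.69, the medium libraries 3.94, 5.28, 4.67 and 4.96, and the high libraries 2.99, 6.83, 5.86 and 4.57. The negative range was far above the low range, the low above the medium, and the high overlapped with both of the latter. Tdh fell by 3.41 on the log2 scale to the low gate (SE 0.28, adjusted p = 1.66e-07), a 10.7-fold difference, and by 4.18 to the high gate (SE 0.30, adjusted p = 4.09e-09). Gcat, the next enzyme of the same pathway, averaged 176 ± 11.4 CPM over the negative and 150 ± 18.4 over the high libraries and did not pass the test (log2 fold change -0.23, SE 0.12, adjusted p = 0.191). Gldc, which breaks glycine down, was at 9.87 ± 2.27 and 7.31 ± 2.51 CPM and did not pass either (adjusted p = 0.383).

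Fgf4, the ligand through which stem cells push each other out of the naive state and a classic joint target of OCT4 and SOX2 (chr7:144847367-144865243, plus strand), had 98 counts over the negative gate, 4 over the low, 3 over the medium and 0 over the high gate. It held 1.46, 7.29, 2.91 and 3.17 CPM in the negative libraries, 0.507 in low library 1 and 0.519 in medium library 3, and was at 0 in the other low, medium and high libraries. It was thus present in every negative library and in 2 of the other 12. From pooled counts it was 24.8-fold lower at low FOXA2 (95% interval 9.39 to 92.9), 28.8-fold lower at medium FOXA2 (9.58 to 142) and at least 23.7-fold lower at high FOXA2. An exact two-sided permutation test gave p = 0.0286 for each, the smallest that it allows, and over these 3 and the 3 of Pou5f1 the Benjamini-Hochberg value is also 0.0286. It too did not pass the filter. With no filter, edgeR gave an adjusted p of 7.6e-06 for low, 5.32e-06 for medium and 4.57e-08 for high against negative, whereas DESeq2 gave 0.151, 0.102 and 0.00992. Of its receptors, Fgfr1 fell by 0.44 on the log2 scale in the high gate (SE 0.12, adjusted p = 0.0107), from 51.9 ± 2.80 to 38.3 ± 2.64 CPM, and Fgfr2 was at 25.2 ± 4.04 and 22.6 ± 3.63 CPM (adjusted p = 0.611).

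The comparisons asked how the transcript changes along the FOXA2 level. Between low and negative, 8 of the 8 tested core genes were called lower, against 2.29% of all tested genes, and 0 higher (1.47%). Their median log2 fold change was -2.60 against 0.016 for all tested genes. The ranges of the 4 and 4 libraries did not overlap for 10 of the 10 core genes, against 5.6% of tested genes lower without overlap. Between medium and negative the call was again 8 of 8 lower (4.22% of all tested) and 0 higher (4.24%), and 10 of 10 had no overlap (6.75%), with a median log2 fold change of -3.82. Between high and negative it was 8 of 8 lower (8.55%), 0 higher (8.42%) and 10 of 10 without overlap (11.1%), with a median of -3.76 against 0.002. These 3 comparisons share the negative libraries, and the genes were chosen with earlier results on the same libraries known.

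**Figure D2:**
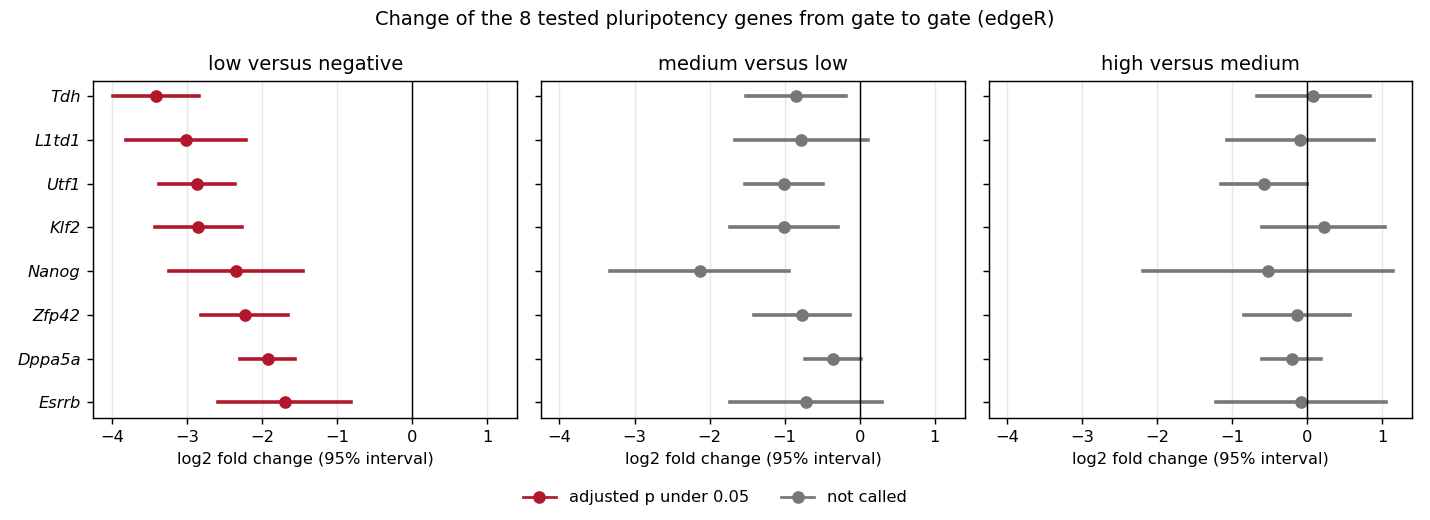
Log2 fold change from each gate to the next for the 8 tested core genes, with 95% intervals, from edgeR; red marks an adjusted p under 0.05. The first step is between -3.41 and -1.70, and none of the genes is called in the next 2 steps.

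Past the low gate fewer core genes were called. Between medium and low, 0 of the 8 were called (0.223% of all tested genes were lower), while 8 of 8 estimates were below 0, from -2.13 for Nanog (95% interval -3.32 to -0.94, adjusted p = 0.117) to -0.35 for Dppa5a (-0.73 to 0.02). The interval of Utf1 was -1.52 to -0.48 (adjusted p = 0.0917) and that of Klf2 -1.72 to -0.28 (adjusted p = 0.336). The count became 1 without negative library 2 or high library 3 (31 of all genes in each of these fits). It was 2 without low library 4, where Nanog and Utf1 passed (26 of all genes). For Utf1, Klf2 and Tdh, 3 of the 10 core genes, every medium library was below every low library (1.99% of tested genes). Between high and low, Nanog and Utf1 were called, 2 of 8 lower against 3.08% of all tested and 0 higher against 3.79%, and Utf1 alone had no overlap, 1 of 10 against 5.95%. Without high library 1 the count was 1, with no filter on low counts it was 5, and with the library number as a block it was 6. In these fits 316, 532 and 477 of all genes were called lower. Between high and medium, 0 of 8 were called (0.547%), 0 of 10 were without overlap (2.44%), and the estimates ran from -0.57 for Utf1 (-1.15 to -0.0038) to 0.22 for Klf2 (-0.60 to 1.04).

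Expressed as a share of the whole log2 difference between high and negative, the low gate had covered 46.8% for Nanog, 64.5% for Utf1, 68.1% for Esrrb, 71.1% for Zfp42, 77.5% for Dppa5a, 77.6% for L1td1, 78.4% for Klf2 and 81.6% for Tdh. Whether the fall from negative to low exceeded that from low to high was tested as a contrast of the 2 steps. It did for Tdh (difference -2.64, SE 0.53, adjusted p = 0.00974) and Dppa5a (-1.37, SE 0.32, adjusted p = 0.0193), 2 of 8 against 0.821% of tested genes. Klf2 was close to the threshold (-2.06, SE 0.57, adjusted p = 0.0504), and Nanog was at 0.32 (95% interval -1.50 to 2.14, adjusted p = 0.95). Without low library 4 both were lost (Tdh adjusted p = 0.0533, Dppa5a 0.0744), without low library 1 the call of Dppa5a was lost (adjusted p = 0.096), and with every library thinned to the smallest total that of Tdh was lost (adjusted p = 0.151). Low library 1 and medium library 2 stand apart from their gates on the third principal component of all tested genes (8.87% of the variance), at 29.9 and 37.3, while the other libraries of these gates lie between -22.3 and -2.02. Without both, no core gene passed this contrast (0 called, against 95 of all genes). The same 8 core genes were called lower in the low, medium and high gates than in the negative gate, against 286, 577 and 1476 of all genes in that fit. High library 2 stands apart from its gate on the second component (9.9% of the variance), at 38.6 against 1.67 to 11.4, and high library 4 on the fourth (6.75%), at 46.1 against -23.4 to 0.21. Without high library 2, 3 core genes were called lower between high and low, against 319 of all genes. Nanog lost its call there (adjusted p = 0.0531), and L1td1 (0.0401) and Zfp42 (0.0327) gained one. Without high library 4 the count was 2, against 349 of all genes. With either left out the same 8 were called between high and negative, against 981 and 1015 of all genes. In the contrast of steps 2 were called in each fit, against 69 and 101 of all genes.

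The high gate kept 3.15% of the negative mean for Nanog, 4.60% for Utf1, 5.54% for Tdh, 6.88% for L1td1, 8.46% for Klf2, 11.4% for Zfp42, 17.7% for Dppa5a and 18.1% for Esrrb. The ratio of each pair of tested genes was compared between the high and the negative libraries by exact two-sided permutation, in 28 pairs. In 11 of them p was 0.0286, the smallest that 4 against 4 libraries allow, and their Benjamini-Hochberg value was 0.0727, so 0 of 28 passed. For low against negative it was 7 of 28 pairs with a Benjamini-Hochberg value of 0.114. Since p cannot go below 0.0286 here, no pair could pass unless more pairs reached that value. The test therefore cannot show that the falls were equal.

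Across the 16 libraries the 8 tested genes went together, and differences between gates enter these values: Pearson's r on log2 CPM ran from 0.766 for Dppa5a and Esrrb to 0.987 for L1td1 and Zfp42 in 28 pairs, with a median of 0.913. Within the gates, after each gate's mean was taken away, r ran from -0.20 to 0.881 for the same pairs, with a median of 0.283, and was above 0 in 24 of 28. Genes of a pair share the library, its depth and its scaling, so these values are a description. The library with the highest mean of the 8 genes was number 2 in each gate. Its mean deviation from the gate on the log2 scale was 0.33 for negative 2 (8 of 8 genes above the gate mean), 0.60 for low 2 (8 of 8), 0.32 for medium 2 (7 of 8) and 0.42 for high 2 (6 of 8). The lowest were negative 4 (-0.39), low 4 (-0.47), medium 1 (-0.25) and high 1 (-0.34). The labels do not say that a number stands for a shared culture or day.

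**Figure D3:**
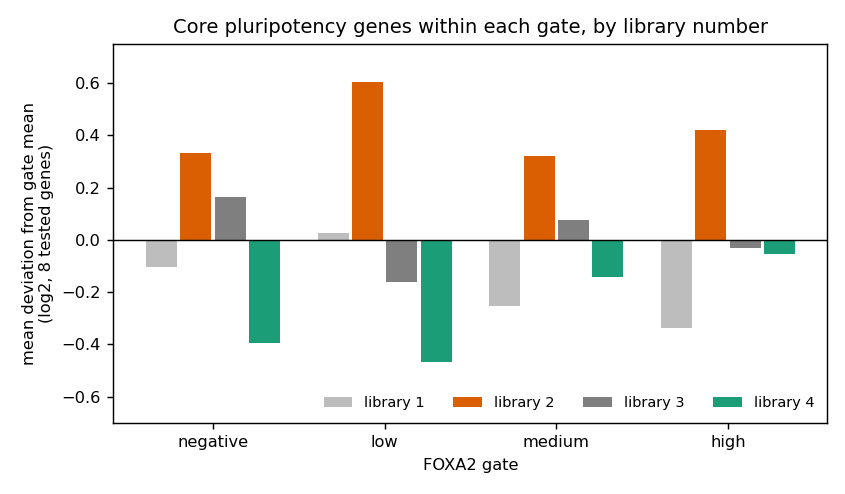
Mean deviation of the 8 tested core genes from their gate mean, on the log2(CPM + 0.25) scale, for each of the 16 libraries; bars start at 0 and colours are library numbers. Library 2 is the highest in each gate, at 0.33, 0.60, 0.32 and 0.42.

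Genes outside the set whose log2 CPM over the 16 libraries was closest to the mean of the 8 tested genes were ranked by Pearson's r among 10349 candidates with a mean of at least 5 CPM in some gate. The closest was Dnmt3l (r = 0.988), the inactive cofactor of the de novo DNA methyltransferases, at 24.3 ± 6.75, 5.15 ± 1.83, 3.02 ± 0.353 and 3.40 ± 0.659 CPM along the 4 gates. Gadd45g, a stress-induced growth regulator (r = 0.973), went from 67.3 ± 3.26 to 13.5 ± 4.71 CPM from negative to high, Rasgrp2 (r = 0.972), an exchange factor for small GTPases, from 49.5 ± 8.04 to 8.13 ± 0.661, and Nr0b1 (r = 0.968), the orphan receptor DAX1 that binds OCT4 in stem cells, from 6.53 ± 1.64 to 0.0385 ± 0.0771. The others were Pla2g1b (0.973), Gtsf1l (0.971), Sfn (0.964), Hsf2bp (0.964), Gatsl3 (0.963) and Rpp25 (0.960).

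Other genes of the pluripotent state were taken from lists. Of 12 tested naive genes out of 13, 6 were lower in the low gate (2.29% of all tested genes) and 9 in the high gate (8.55%), and 0 were higher in either (1.47% and 8.42%). Dppa3, a maternal factor of the early embryo and germ line, went from 7.32 ± 3.51 CPM to 0.924 ± 0.748 in the low and 0.215 ± 0.288 in the high gate (log2 fold change high against negative -5.36, SE 0.76, adjusted p = 4.58e-06). Tfcp2l1, a transcription factor of the naive network, fell from 10.5 ± 1.61 to 3.66 ± 0.741 CPM (adjusted p = 0.00267), and Nr5a2, a nuclear receptor of the same network, from 14.2 ± 2.41 to 5.02 ± 1.41 (adjusted p = 0.000104). Gbx2, a homeobox gene of both naive cells and the anterior hindbrain, fell from 34.3 ± 1.22 to 17.8 ± 2.62 (adjusted p = 0.000113). Between negative and high the other Krüppel-like factors did not pass the test: Klf4 was at 2.86 ± 1.87 and 4.77 ± 1.07 CPM (adjusted p = 0.327) and Klf5 at 11.8 ± 3.08 and 12.3 ± 2.42 (adjusted p = 0.938). In the low gate Klf4 was at 1.40 ± 0.869 CPM and Klf5 at 7.41 ± 2.78. Between high and low, 1 of the 12 tested naive genes was called higher (3.79% of all tested) and 0 lower (3.08%). The call was lost in 6 of 23 alternative fits. Their difference from Klf2 was not tested.

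Of 9 tested genes out of 10 shared by naive and primed cells, 5 were lower in the low gate, 5 in the high gate and 0 higher in either, against the same shares of all tested genes. Gdf3, a ligand of the TGF-beta family, fell from 22.1 ± 4.22 CPM through 5.27 ± 2.76 in the low to 1.74 ± 1.08 in the high gate (adjusted p = 5.38e-07 for high). Dppa4, a chromatin-associated protein of pluripotent cells, fell from 34.6 ± 8.30 to 16.2 ± 5.97 CPM in the low gate (adjusted p = 0.000884) and was at 14.3 ± 3.52 in the high gate (adjusted p = 5.15e-05 against negative). The RNA-binding protein Lin28a, which blocks the maturation of let-7, was at 348 ± 37.6 CPM in the negative and 419 ± 69.2 in the high gate (adjusted p = 0.545), the zinc finger factor Sall4 at 153 ± 10.6 and 221 ± 28.3 (adjusted p = 0.117), and the let-7 target Trim71 at 65.3 ± 13.1 and 87.7 ± 7.61 (adjusted p = 0.0797). In the high gate 1 or 2 genes of this list were called higher with DESeq2, with no filter, in a fit of the 2 gates, and when negative 3, low 1, low 4 or medium 2 was left out. Sox2, the partner of OCT4, is listed at 0 in all 16 libraries, and in GENCODE M21 its 3′ end lies inside Sox2ot on the same strand. Whether reads were lost to that overlap was not tested.

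Genes of the formative and primed epiblast, the later pluripotent states, were 10 tested of 11. In the low gate 2 were lower (2.29% of all tested genes), and in the high gate 5 were lower (8.55%) and 1 was higher (8.42%). The first count was 1 without negative library 2 and without low library 1, 3 or 4. It was 1 to 3 with any single library left out (212 to 385 of all genes) and 0 to 4 in the other alternatives (190 to 374). The 5 lower in the high gate became 5 to 6 with a library left out (914 to 1411) and 3 to 7 in the others (809 to 1476). Dnmt3b, a de novo DNA methyltransferase, fell between negative and high from 271 ± 55.1 to 180 ± 7.88 CPM (by 0.59 on the log2 scale, SE 0.15, adjusted p = 0.00878). Otx2, which moves cells out of the naive state and marks anterior neural tissue, averaged 4.07 ± 3.24 CPM in the negative gate, 0.448 ± 0.668 at low FOXA2 (adjusted p = 0.0149) and 1.09 ± 0.698 at high FOXA2 (adjusted p = 0.0639). Fgf5, a marker of the primed epiblast, was at 2.19 ± 2.01, 0.503 ± 0.374 and 1.91 ± 0.829 CPM in the negative, low and high gates (adjusted p = 0.0814 and 0.848). Pou3f1 was at 15.8 ± 3.65 and 7.09 ± 1.85 (adjusted p = 0.061), Dnmt3a at 89.3 ± 26.5 and 66.3 ± 14.7 (adjusted p = 0.377), and Sall2 fell from 73.2 ± 7.19 to 38.4 ± 3.73 (adjusted p = 8.34e-07).

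**Figure D4:**
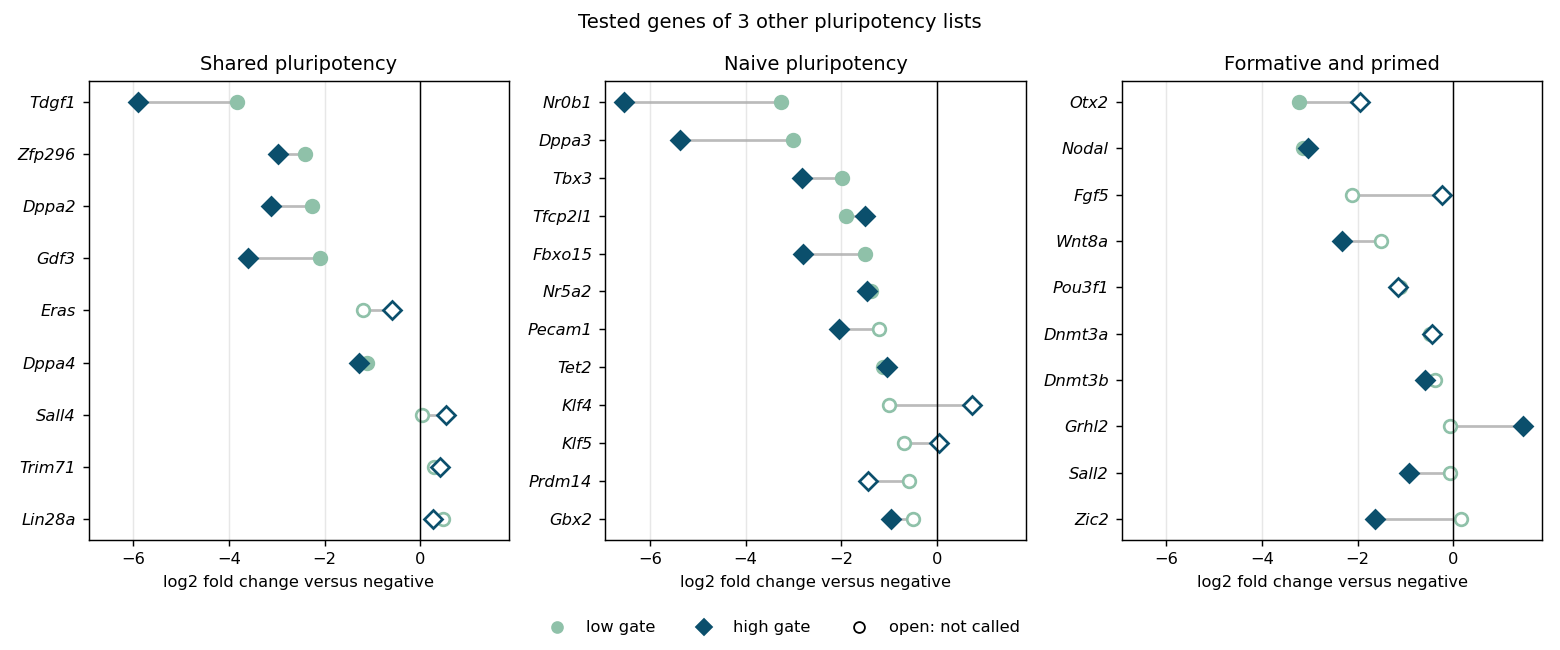
Log2 fold change against the negative gate in the low gate (circles) and the high gate (diamonds) for the tested genes of 3 further pluripotency lists, from edgeR; open symbols are not called. Lin28a, Trim71, Sall4, Klf4 and Klf5 lie near or above 0 in the high gate and none of them is called there.

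Factors that act on the network from outside came next. Of 8 tested nuclear receptors known to act on Pou5f1 control regions, 1 was lower in the low gate (2.29% of all tested genes), 1 in the high gate (8.55%) and 0 were higher in either, so the share in the high gate is near that of all genes. The second of these counts was 2 without negative library 4, and 1 receptor was then called higher, as was 1 in the low gate without medium library 2. In each of these gates, 4 of 23 alternative fits called a receptor higher, and at most 2 were called. Over the alternatives 119 to 318 of all genes were higher in the low and 820 to 1427 in the high gate. Nr6a1, the receptor GCNF that silences Pou5f1 in differentiating cells through AGGTCA repeats, was at 101 ± 11.0 CPM in negative libraries and 122 ± 10.6 in high ones (difference 0.26 on the log2 scale, SE 0.12, adjusted p = 0.128). Rarg, a retinoic acid receptor, fell from 33.5 ± 6.61 to 16.6 ± 2.69 CPM in the low gate (adjusted p = 0.000764) and was at 24.7 ± 5.45 in the high gate (adjusted p = 0.112). Nr2f1 fell from 33.6 ± 4.99 to 9.66 ± 2.68 CPM in the high gate (adjusted p = 7.69e-08), Nr2f2 was at 62.6 ± 12.0 and 74.6 ± 5.33 (adjusted p = 0.277), Rarb at 38.6 ± 13.8 and 56.8 ± 14.5 (adjusted p = 0.108) and Rara at 32.0 ± 3.17 and 41.1 ± 3.57 (adjusted p = 0.062).

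LIF signalling through STAT3 keeps mouse stem cells naive. Of its 7 tested genes out of 8, 0 were lower and 1 higher in the low gate (2.29% and 1.47% of all tested genes), and 1 was lower and 1 higher in the high gate (8.55% and 8.42%), which is near the share of all genes. The shared receptor chain Il6st fell from 24.8 ± 1.61 to 16.2 ± 1.33 CPM in the high gate (adjusted p = 0.0159) and Lifr rose from 5.04 ± 0.467 to 9.58 ± 0.987 (adjusted p = 0.0178). The feedback inhibitor Socs3 was the gene called higher in the low gate, at 10.0 ± 1.92 and 16.3 ± 4.71 CPM (adjusted p = 0.049), a call lost when any of 12 single libraries was left out. Jak1 was at 51.5 ± 8.11 and 54.9 ± 3.18 CPM (adjusted p = 0.709) and Ptpn11 at 165 ± 24.5 and 185 ± 25.0 (adjusted p = 0.344) in the negative and the high gate.

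Primordial germ cells also express several of the core genes. Of 11 tested germline genes out of 12, 3 were lower in the low gate (2.29% of all tested genes), and in the high gate 4 were lower (8.55%) and 1 was higher (8.42%), or 2 lower without high library 2 or 3. Tfap2c, a factor of germ cells, trophoblast and surface ectoderm, fell from 76.2 ± 9.68 CPM through 28.9 ± 3.11 and 17.5 ± 2.67 to 9.34 ± 1.04 along the gates (log2 fold change high against negative -3.03, SE 0.16, adjusted p = 6.63e-14). Ifitm3 was at 270 ± 36.5 and 230 ± 17.7 CPM (adjusted p = 0.227), Dmrt1 at 24.6 ± 4.36 and 20.3 ± 4.16 (adjusted p = 0.395), and Stk31 fell from 23.8 ± 3.96 to 14.7 ± 2.19 (adjusted p = 0.0176) in the high gate. Dmrt1 was lower in the low gate, at 12.7 ± 3.91 CPM. Genes of this list went opposite ways from negative to high. Nanos3 went from 4.68 ± 1.91 to 0.387 ± 0.352 CPM and Prdm1 from 8.32 ± 2.58 to 25.2 ± 6.91.

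Markers of other cell types moved along the same gates. The labels call the cells embryonic stem cells from neural tube organoids. Of the neural progenitor list, 11 of 12 genes were tested, Sox1 being listed at 0 in all libraries. In GENCODE M21 the 3′ end of Sox1, as that of Sox2, lies inside a gene on the same strand (Sox1ot), and whether reads were lost to it was not tested. Neural genes were lower in the high gate in 9 of 11 (8.55% of all tested), and in the low gate in 1 of 11 (2.29%; 0 without negative library 4), and their summed level ran from 437 to 505 CPM in the negative, 406 to 511 in the low, 261 to 306 in the medium and 125 to 171 in the high libraries. Pax6 was at 95.4 ± 8.27, 87.1 ± 12.6, 56.9 ± 10.3 and 23.7 ± 1.24 CPM, and Hes5 at 92.9 ± 17.8, 111 ± 2.66, 54.4 ± 7.46 and 19.0 ± 5.18. Nes fell from 67.2 ± 12.9 to 24.2 ± 7.80 CPM (adjusted p = 0.00799) and Rfx4 from 45.6 ± 10.9 to 19.8 ± 5.69 (adjusted p = 4.94e-06) between the negative and the high gate. The contrast of the first with the later step was called positive for 7 of these 11, against 1.14% of all tested genes, and for 0 of the 8 core genes.

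Endoderm markers, 7 of 12 tested, had 2 genes higher in the low gate (1.47% of all tested) and 2 in the high gate (8.42%; 4 without negative library 2), and their summed level was between 31.3 and 43.2 CPM in the negative libraries, 89.5 and 99.0 in the low, 114 and 190 in the medium and 165 and 198 in the high. In the low and the high gate most of it was Sox17, which rose from 11.7 ± 3.02 CPM in the negative to 52.4 ± 7.80 in the low and 134 ± 14.5 in the high gate (adjusted p = 3.79e-07 and 2.04e-11). Dab2 rose from 13.9 ± 6.25 to 30.0 ± 8.58 CPM in the low gate (adjusted p = 0.0036) and was at 19.8 ± 1.93 in the high gate (adjusted p = 0.149). Ttr, a secreted carrier protein of visceral endoderm and liver, rose from 0.0434 ± 0.0868 to 10.9 ± 1.64 CPM at high FOXA2 (by 7.57 on the log2 scale, SE 0.67, adjusted p = 9.35e-10), with 1 count over the negative and 216 over the high libraries. Gata4 was at 3.97 ± 1.58 and 2.13 ± 0.62 CPM in the negative and the high gate (adjusted p = 0.11), Afp at 0.0512 ± 0.102 and 1.57 ± 0.488, Gata6 at 0.171 ± 0.246 and 2.43 ± 1.24, and Hnf4a at 0.081 ± 0.162 and 0.

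Trophoblast markers, 5 of 9 tested, summed to between 34.7 and 47.9 CPM in the negative, 28.4 and 59.9 in the low, 40.9 and 90.9 in the medium and 70.6 and 85.8 in the high libraries. In the low gate 1 was lower (2.29% of all tested) and 0 higher (1.47%). In the high gate 3 were higher (8.42% of all tested) and 1 was lower (8.55%). Between the negative and the high gate Krt7 rose from 7.90 ± 1.79 to 37.6 ± 8.19 CPM (adjusted p = 1.68e-06), Gata3 from 11.4 ± 3.23 to 31.7 ± 8.15 (adjusted p = 0.00921) and Cdx2 from 1.40 ± 0.953 to 3.8 ± 0.785 (adjusted p = 0.0363), while Ascl2 fell from 15.5 ± 4.00 to 1.71 ± 0.80 (adjusted p = 3.25e-07). Tpbpa was at 0 in all libraries. Primitive streak and mesoderm markers, 2 of 9 tested, summed to between 16.2 and 24.1 CPM in the negative, 43.5 and 52.0 in the low, 41.6 and 54.4 in the medium and 25.9 and 34.8 in the high libraries. Both tested genes were higher in the high gate, against 8.42% of all tested (1 without high library 3), and 1 was in the low gate, against 1.47%. Meox1 rose from 15.5 ± 1.39 through 42.2 ± 3.29 in the low gate (adjusted p = 2.27e-07) to 23.4 ± 4.52 CPM in the high gate (adjusted p = 0.00673), and T, a factor of the primitive streak and notochord, from 0.478 ± 0.187 to 4.25 ± 2.73 (log2 fold change 3.09, SE 0.55, adjusted p = 0.000143). Mesp1 was at 2.03 ± 3.00 and 0.715 ± 0.559 CPM and Kdr at 0.386 ± 0.258 and 0.452 ± 0.419 in the negative and the high gate, and Evx1 and Msgn1 were at 0. The part of these cell types in the fall of the core genes was not tested.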

How the data were processed

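The file the authors deposited holds raw gene counts (whole numbers) for the 16 libraries and is not normalized. Per the submitters' processing notes, tools were STARsolo 2.7.9a, cutadapt 1.18 and DESeq2 1.42.0, with GRCm38 as the build. How reads were annotated, which strand setting applied and whether molecular identifiers were used to collapse them is not given in the sources used here. Each column's name matched a sample.

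Counts were filtered with edgeR 4.0.16 in R 4.3.3 (filterByExpr by gate), which kept 13891 genes and at least 99.665% of each library's counts, and scaled by TMM (factors 0.97 to 1.05). A robust quasi-likelihood model was fitted to all 16 libraries, with Benjamini-Hochberg adjustment per comparison. All adjusted p-values are from it unless DESeq2 is named. Standard errors are the log2 fold change over the square root of F. Differences on a log2 scale outside this model used a pseudocount of 0.25 CPM. The fitting was also run on simulated data in which the low, medium and high gates had the same fall from negative. A change between these gates was not simulated. The core genes and all lists were chosen with earlier results of these data known. Named from each list were its 4 genes of highest mean level and a fixed set, whatever their result, except that 1 gene is not reported here and was left out of its list. Other genes of a list (Nr0b1, Nr2f1, Rarg, Lifr, Nanos3, Prdm1, Afp, Hnf4a, Gata6, Evx1, Msgn1, Tpbpa, Sox1) were named after their values were seen. The closest genes were the 10 of highest r, without unnamed gene models.

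Totals ran from 3268948 to 9961032 counts. The least difference between libraries of a gate was a chi-square of 4.25 per degree of freedom, so none was treated as a duplicate. Gene coordinates and end windows are from GENCODE M21. Alternatives were RLE scaling, DESeq2, no filter, the replicate number as a block, thinning to the smallest total, a fit of only the 2 gates compared, each library left out, and, added after the data were seen, a fit without low 1 and medium 2.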

Additional observations from a re-analysis of the deposited data

Results flagged for a closer look

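In groups of 4 libraries, a value was marked when its gap to the nearest of the others exceeded Dixon's 95% critical share of the range. Chance marks about 1 in 20 groups, and 5 of 42 were marked, counting each core gene and their sum in each gate where the libraries were not all at 0 (11.9%). L1td1 was at 15.9 CPM in high library 2, against 4.26 to 5.82 in the other high libraries. Klf2 was at 3.35 CPM in high library 4, against 1.26 to 1.39 in the others. Pou5f1 was at 0.33 CPM in medium library 2, Fgf4 at 0.507 CPM in low library 1 and Fgf4 at 0.519 CPM in medium library 3, each with the other libraries of the gate at 0, so that these 3 marks rest on 2, 4 and 3 counts.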

How the results depend on the processing

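Of 552 alternative values of the core genes' log2 fold changes against the negative gate, 546 kept direction and call, 6 lost the call (Esrrb 5 times and Nanog once, both low against negative) and 0 changed sign. Of 723 other values, 651 kept both, 9 lost a call, 41 gained it and 22 changed sign. In the next counts, brackets hold the number of all genes called lower in the same fit. Between high and low the core count was 2 (428). It was 5 with no filter (532), 6 with the replicate block (477) and 1 in a fit of these 2 gates only (427). With a library left out it was 1 to 3 (316 to 515). Between medium and low the core count was 0 (31). It was 2 with DESeq2 (49), 4 with no filter (69), 2 with the replicate block (42) and 2 after thinning (21). In a fit of the 2 gates it was 1 (18), and with a library left out 0 to 2 (16 to 35). The core count falling more in the first step was 2 (114). It was 4 with DESeq2 (174), 5 with no filter (158), 5 with the replicate block (154) and 1 after thinning (58). Without low 1 and medium 2 it was 0 (95), and with a library left out 0 to 3 (39 to 140). The causes were not tested. The libraries were taken to share only a number by the rule used, under which every same-numbered pair had to correlate above 0.1 in its deviations. The 24 such pairs ran from -0.082 to 0.216 (median 0.029, 6 above 0.1), against a median of -0.013 and 3 of 72 above 0.1 for other pairs. Of the 16 libraries, 8 were closest to their own number, a hint of pairing. The sample titles also list the 4 gates of each number together, without saying what a number stands for. A single pair below 0.1 fails this rule, so failing it cannot show that the libraries are unpaired. Sign changes were all in values without a call. Thinning gave 0.076 for Esrrb in the contrast of steps and, for high against medium, 0.27 for L1td1 and 0.31 for Nanog. Without low 1 and medium 2, high against medium was 0.22 for Esrrb, 0.11 for L1td1 and 0.044 for Zfp42. With a library left out, high against medium ran from -0.59 to 0.23 for Esrrb, -0.14 to 0.35 for Klf2, -0.62 to 0.11 for L1td1, -0.079 to 0.29 for Tdh and -0.42 to 0.044 for Zfp42, and the contrast of steps from -0.65 to 1.07 for Nanog. Counts were fewest for Pou5f1 and Fgf4, with at most 42 in a library, and were few for Nanog, Klf2 and Esrrb in the medium and high gates. In those gates a difference of the size of their intervals was not detectable. Whether depth, level or shared sequence kept these counts low was not tested.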
